A study of Homo sapiens with 8 samples.

Results

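JUND-only peaks are JUND binding sites of DU145 prostate cancer cells with no called peak of ETS1, ELF1, ELK4 or GABPA. They were chosen by overlap: a JUND peak was kept when it shared no base pair with either ETS1 list or with the ELF1, ELK4 or GABPA list. There were 781 such peaks among 1308 JUND peaks, or 59.7% (95% Clopper-Pearson interval 57.0 to 62.4%), and the other 527 met at least 1 ETS list. Of these 527, 453 met the first ETS1 list, 409 the second, 60 GABPA, 20 ELK4 and 10 ELF1. Without an ETS1 list, 3 met ELK4, 2 met ELF1 and 2 met GABPA, so the choice rests almost wholly on ETS1. The overlap with these lists is therefore the choice itself and not a finding. A site outside a list is one with no called peak there, which does not show that the factor was absent. ETS factors other than ETS1, ELF1, ELK4 and GABPA were not mapped in this study.

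JUND is a subunit of AP-1, a dimer of JUN and FOS family proteins that binds TPA response elements and is activated downstream of growth factor and stress signalling. ETS factors share a DNA-binding domain that recognises a GGAA core, and AP-1 and ETS sites often lie side by side in genes that respond to RAS/ERK signalling. JUND-only peaks are the part of the JUND map for which no overlap with an ETS peak was seen in these lists. An ETS peak can still lie beside them, as one did within 500 bp of 17 peaks.

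The study mapped transcription factors by chromatin immunoprecipitation and sequencing (ChIP-seq) in 2 human cancer cell lines. DU145 is an androgen-independent line from a metastasis of prostate carcinoma, and PANC1 is a line from pancreatic carcinoma. The groups used here were JUND, ETS1, ELF1, ELK4 and GABPA in DU145 and ETS1 in PANC1, with 1 sample each, no treatment or genotype named in the labels, and 1 antibody per factor. The labels allow for puromycin in the DU145 medium of selected cells without saying which cultures were selected, and they give the DU145 medium for the PANC1 samples too. The DU145 ETS1 sample has a second list, marked R2, and the labels do not say whether it comes from another immunoprecipitation, so both count as 1 sample. With 1 sample per group, every interval below covers counting error over the peaks of these lists only. Peaks of 1 list share a library and are not replicates of a condition.

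The JUND list is short beside the ETS1 lists, which hold 9984 and 9306 peaks, and long beside those of ELK4 (337) and ELF1 (256). GABPA has 2478 peaks. No file gives reads or scores per peak, so the depth of each list is unknown.

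JUND-only peaks were somewhat narrower than the other JUND peaks. Their width had a median of 668 bp (quartiles 532 and 828, range 419 to 2367), against 750 bp (554.5 and 943.5, range 465 to 3796) for those that met an ETS list. A wider interval meets another list more easily, so this difference is tied to the choice. Together the JUND-only peaks covered 553191 bp.

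The widest JUND-only peak lay on chromosome 7 from 139365239 to 139367605 (hg19), spanned 2367 bp and stood 109991 bp from the nearest ETS peak, one of the first ETS1 list. The next, on chromosome 10 from 72136278 to 72138347, spanned 2070 bp and had an ETS1 peak of the first list at 3284 bp and one of the second at 3650 bp. The third, on chromosome 16 from 90061073 to 90062929 (1857 bp), was also the JUND-only peak with the earliest line in the JUND list, line 6. Its nearest ETS peak was 21244 bp away. These wide sites thus lay at very different distances from ETS1.

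A peak on chromosome 9 from 136009389 to 136011121 spanned 1733 bp, and one on chromosome 17 from 78865448 to 78867159 spanned 1712 bp. They stood 13290 and 98145 bp from the first ETS1 list. On chromosome 7 from 55200200 to 55201817, a peak of 1618 bp had no ETS peak within 112194 bp, and its nearest GABPA peak was 372989 bp away. A peak of 1557 bp on chromosome 20, from 49377904 to 49379460, had its nearest ETS1 peak at 28810 bp and another JUND peak at 31837 bp. On chromosome 22 from 18514115 to 18515650, a peak of 1536 bp stood 7102 bp from ETS1, while GABPA and ELK4 peaks were 44679 and 44774 bp away. The other two of the 10 widest, with widths of 1628 and 1513 bp, belong to clusters on chromosome 1 that are described further on.

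In the order of the JUND list, the JUND-only peak after line 6 was at line 8, on chromosome 8, and had another JUND peak 1001 bp away. Line 11 held a peak on chromosome 5 from 912102 to 913281. Its nearest ETS1 peaks (18444 and 18789 bp), GABPA peak (18833 bp) and ELK4 peak (19006 bp) were at almost the same distance. Whether they lie on the same side of it was not tested. Line 19 held a peak on chromosome 6 from 4358523 to 4359573, which stood 221885 bp from ETS1 and 1182502 bp from any other JUND peak. Line 20 held a peak on chromosome 1 from 55894400 to 55895513, at 212915 bp from ETS1 and 3325467 bp from any other JUND peak. The peaks of lines 11, 19 and 20 were 1180, 1051 and 1114 bp wide. The first lines thus held JUND-only peaks with a close JUND neighbour and others without one.

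The share of JUND-only peaks was lower among the first lines and the widest intervals of the JUND list. In 5 equal groups by line order it was 49.6% (43.4 to 55.8%, 130 of 262) in the first lines, then 58.0%, 62.8% and 62.2%, and 65.9% (59.8 to 71.6%, 172 of 261) in the last. In 5 equal groups by width it was 65.6% (59.6 to 71.4%) in the narrowest and 42.9% (36.8 to 49.2%, 112 of 261) in the widest, with 61.8 to 65.6% in the groups between. The lower share is thus seen in 1 group, peaks of 912 bp or more, against 63.9% over the rest (odds ratio 0.425, exact 95% interval 0.319 to 0.565). No source used here says what the order of lines means, but lines and widths go together (Spearman's rho -0.71 over the 781 peaks of 1 library, as a description).

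With every interval of every list set to 500 bp around its centre, the first lines and the widest group again had the lowest shares. Width still enters this rule, since the deposited ends set where a centre falls. The share went from 54.6% (48.3 to 60.7%) to 70.9% (65.0 to 76.3%) over the 5 line groups, and was 51.7% (45.5 to 57.9%) in the group that had the widest deposited intervals. With peak centres within 200 bp counted as shared, another rule based on centres, the widest group was closer to the rest. Its share was 67.4% against 74.98% (odds ratio 0.691, 0.5105 to 0.940).

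With deposited intervals, the shares in the earlier and the later lines, divided at the midpoint, were 55.0% and 64.4% (odds ratio 1.48, exact 95% interval 1.17 to 1.85). Within each width group, divided at its own median line, the intervals of this odds ratio held 1, with values from 0.742 (0.440 to 1.25) to 1.07 (0.622 to 1.84). Among the wider peaks of the list (at or above its median width) it was 1.51 (1.01 to 2.27), and among the narrower peaks 1.01 (0.662 to 1.52). The wider and the narrower peaks were divided at the midpoint of the whole list, and not at their own median line. These values thus differ in more than how finely width was divided. Whether lines differ beyond what goes with width cannot be told from them.

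**Figure D1:**
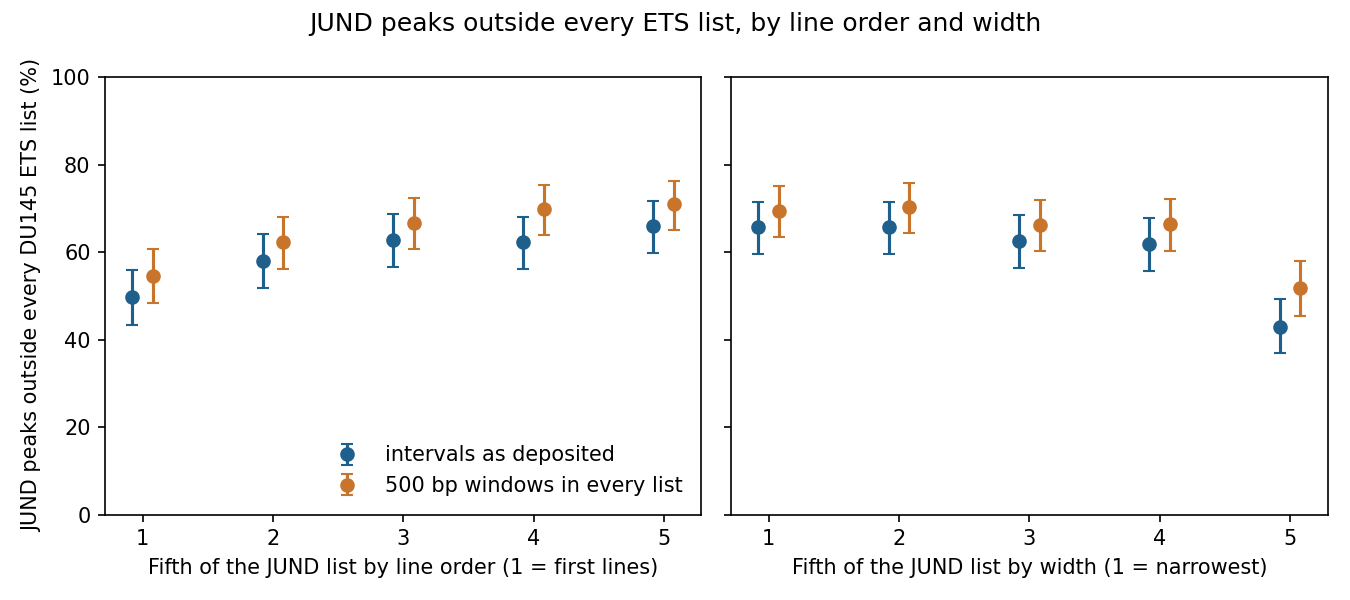
Share of JUND peaks outside every DU145 ETS list (vertical axis, %) in 5 equal groups of the JUND list by line order (left) and by width (right), with intervals as deposited and with 500 bp windows. Points are shares, bars are 95% Clopper-Pearson intervals over peaks, and the lowest points are the widest group (42.9% and 51.7%).

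Distances to ETS peaks spread widely among JUND-only peaks. They are given as a description, since the choice removed every JUND peak that touches an ETS peak. The distance to the nearest peak of any DU145 ETS list had a median of 35181 bp (quartiles 11138 and 113621). An ETS peak lay within 500 bp of 17 peaks (2.18%, 1.27 to 3.46%), and 125 (16.0%, 13.5 to 18.8%) had one within 5 kb. Within 50 kb the share was 59.5% (56.0 to 63.0%, 465 of 781), and within 100 kb it was 72.1%. Thus 218 peaks had no ETS peak within 100 kb on either side. Neither width nor line went with this distance to any extent (Spearman's rho 0.04 and -0.04 over 781 peaks, as a description).

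**Figure D2:**
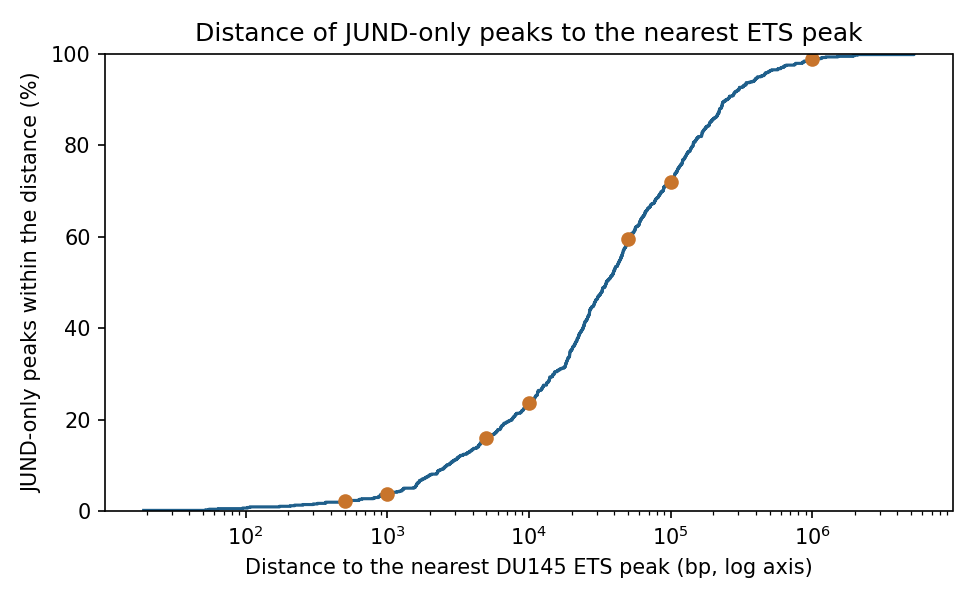
Share of the 781 JUND-only peaks (vertical axis, %) whose nearest DU145 ETS peak lies within the distance on the horizontal axis (bp, log axis). The line is the cumulative share and the dots mark the distances from 500 bp to 1000 kb that were counted, with 59.5% of peaks within 50 kb.

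The nearest ETS peak was one of ETS1 for nearly all of them. It came from the first ETS1 list for 640 and from the second for 125, and from GABPA for 9, ELK4 for 4 and ELF1 for 3. The median distance was 40546 bp to the first ETS1 list, 46489 bp to the second, 306090 bp to GABPA, 1768396 bp to ELK4 and 2598465 bp to ELF1. This is also the order of the lists by length, so the distances do not rank the factors. Nor do they rank the ETS1 lists. Intervals of the first were wider than those of the second (median 1173 against 497 bp), distances run between interval ends, and ties counted for the first. No JUND-only peak came closer than 1122 bp to GABPA, 1201 bp to ELK4 or 2383 bp to ELF1.

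Near the limit of the choice, sites on both sides differed by few bases. The closest peaks that were kept were chr1:17559859-17560780, chr6:31697491-31697985 and chr12:53318675-53319338. They were 19, 52 and 55 bp from a peak of the second ETS1 list, while their nearest first-list peaks were 42906, 4379 and 19282 bp away. The closest that were left out were chr5:42950798-42951298, chr14:51471782-51472309, chr14:69251137-69252223 and chr2:241373414-241373938, which shared 19, 45, 53 and 53 bp with an ETS1 peak. At the other end, the most distant, on chromosome 9 from 47196456 to 47196956, had no ETS peak within 5241506 bp. It was 501 bp wide and stood at line 1304 of 1308. The next most distant, on chromosome 3 from 165360701 to 165361191, had its nearest ETS peak at 2090723 bp. Those positions on chromosomes 9 and 3 were named after their values were seen.

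JUND-only peaks had close JUND neighbours less often than the other JUND peaks did. Another JUND peak stood under 50 kb away for 209 of 781 (26.8%, 23.7 to 30.0%), against 233 of 527 (44.2%, 39.9 to 48.6%) of those that met an ETS list, and 33.8% of all JUND peaks. The odds ratio was 0.461 (exact 95% interval 0.3625 to 0.587), and pooled within chromosomes it was 0.485 (Mantel-Haenszel, approximate 95% interval 0.381 to 0.617). Under 10 kb the shares were 11.9% and 21.6% (odds ratio 0.490), and under 500 kb they were 63.4% and 80.8% (0.411). The median distance to the nearest other JUND peak was 248068 bp for JUND-only peaks and 75018 bp for the others. The comparison was chosen after the distances were seen, and neighbouring peaks count for each other, so the intervals are approximate. An interval of the first ETS1 list spans up to 13707 bp and can meet several JUND peaks, which ties this difference to the choice. How far it does so was not tested. The odds ratio under 50 kb was closer to 1 under the rules based on peak centres, which the deposited ends still set. It was 0.559 (0.438 to 0.713) with 500 bp windows and 0.667 (0.513 to 0.867) with peak centres within 200 bp.

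**Figure D3:**
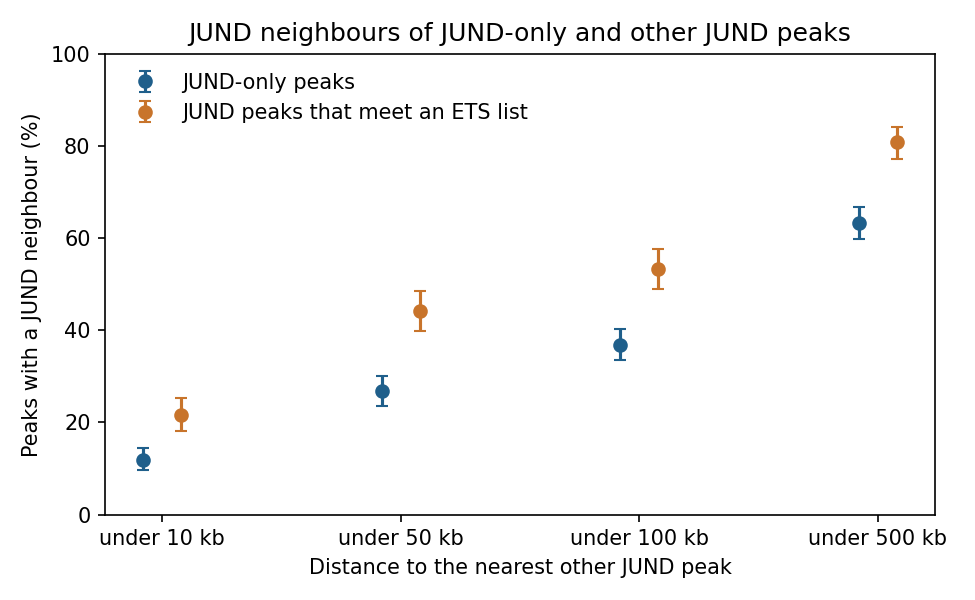
Share of peaks (vertical axis, %) with another JUND peak under 10, 50, 100 or 500 kb away, for the 781 JUND-only peaks and the 527 that meet an ETS list. Points are shares and bars are 95% Clopper-Pearson intervals over peaks, and JUND-only peaks are lower at each distance (26.8% against 44.2% under 50 kb).

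Of the 209 JUND-only peaks with such a neighbour, 147 had another JUND-only peak under 50 kb away and 92 had a JUND peak that met an ETS list, with some having both. When JUND-only peaks under 50 kb apart were joined, 634 stood alone, 130 formed 65 pairs, 12 formed 4 groups of 3, and 5 formed 1 group. When all JUND peaks were joined in the same way, 56 groups of at least 2 held JUND-only peaks alone, 74 held both kinds, and 47 held only peaks that met an ETS list.

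The group of 5 lay on chromosome 10 from 3782305 to 3895295, a span of 113 kb. Its members were 943, 577, 670, 461 and 905 bp wide and stood between lines 231 and 795 of the list. They were 19532 to 65856 bp from the nearest ETS peak, which belonged to the first ETS1 list for all 5. A further JUND peak inside the stretch, from 3824981 to 3825778 (798 bp), met that list and no other. The ETS1 peak that it met was the nearest one to the members before it. The members after it also shared their nearest ETS1 peak, so the 5 distances are not separate observations. The stretch therefore holds 6 JUND peaks in all and 1 of them at an ETS1 peak.

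On chromosome 1, 3 JUND-only peaks lay within 4219 bp, from 27324054 to 27328272. They were 477, 960 and 1513 bp wide, and the widest was also the earliest in the list, at line 55. Their nearest ETS peak was the same peak of the second ETS1 list, at 107, 1215 and 2813 bp. A JUND peak from 27317781 to 27318288 met both ETS1 lists. A second group of 3 on chromosome 1, from 151918330 to 151962422, held peaks of 927, 875 and 1628 bp at 35529, 18632 and 2284 bp from ETS1. It was followed 2030 bp on by a JUND peak of 1144 bp that met both ETS1 lists (151964453 to 151965596). The distances of 18632 and 2284 bp were to the same ETS1 peak. Both groups thus had a JUND peak at ETS1 close by.

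The group of 3 on chromosome 21, from 36589844 to 36638277, had no such neighbour. Its peaks of 616, 732 and 745 bp were 326809, 341672 and 374498 bp from the nearest ETS peak. That was the same peak of the first ETS1 list for all 3, so these distances are not separate observations. No JUND peak that met an ETS list was joined to this group. The remaining group of 3, on chromosome 8, was likewise made of JUND-only peaks alone.

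JUND-only peaks were found on 23 chromosomes, with the highest counts on chromosomes 1 (83), 10 (52), 9 (49), 8 (48) and 2 (47). Their share of the JUND peaks ranged from 44.4% (34.0 to 55.3%, 40 of 90) on chromosome 17 to 83.3% (51.6 to 97.9%, 10 of 12) on chromosome 13. Chromosome 19 was also low, with 47.1% (34.8 to 59.6%, 32 of 68). Chromosome 3 was high with 81.5% (68.6 to 90.8%, 44 of 54), as were chromosome 7 with 76.9% (63.2 to 87.5%) and chromosome 5 with 75.5% (61.7 to 86.2%). The intervals of chromosomes 17 and 19 lay below the share over the whole list, 59.7%, and those of chromosomes 3, 5 and 7 lay above it. With 22 chromosomes read at once, some such intervals would miss it by counting error alone.

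The share was lower on chromosomes where ETS1 peaks were dense. Chromosome 19 had 13.1 peaks of the second ETS1 list per Mb of the span that the lists cover, and chromosome 17 had 7.82, against 2.37 on chromosome 3 and 2.17 on chromosome 5. Over the 22 chromosomes with at least 10 JUND peaks, Spearman's rho of ETS1 peaks per Mb was -0.58 with the share of JUND-only peaks. It was 0.72 with JUND-only peaks per Mb and 0.83 with the other JUND peaks per Mb. Both kinds of JUND peak were thus denser on chromosomes with denser ETS1 peaks. These values are descriptions over chromosomes that share the same libraries. More ETS1 peaks leave less room outside them, so the value of -0.58 follows in part from the choice. The value of 0.83 does so too, since the other JUND peaks were chosen by meeting an ETS list, and 409 met the second ETS1 list. In the values of 0.72 and 0.83, both sides are also divided by the same Mb.

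**Figure D4:**
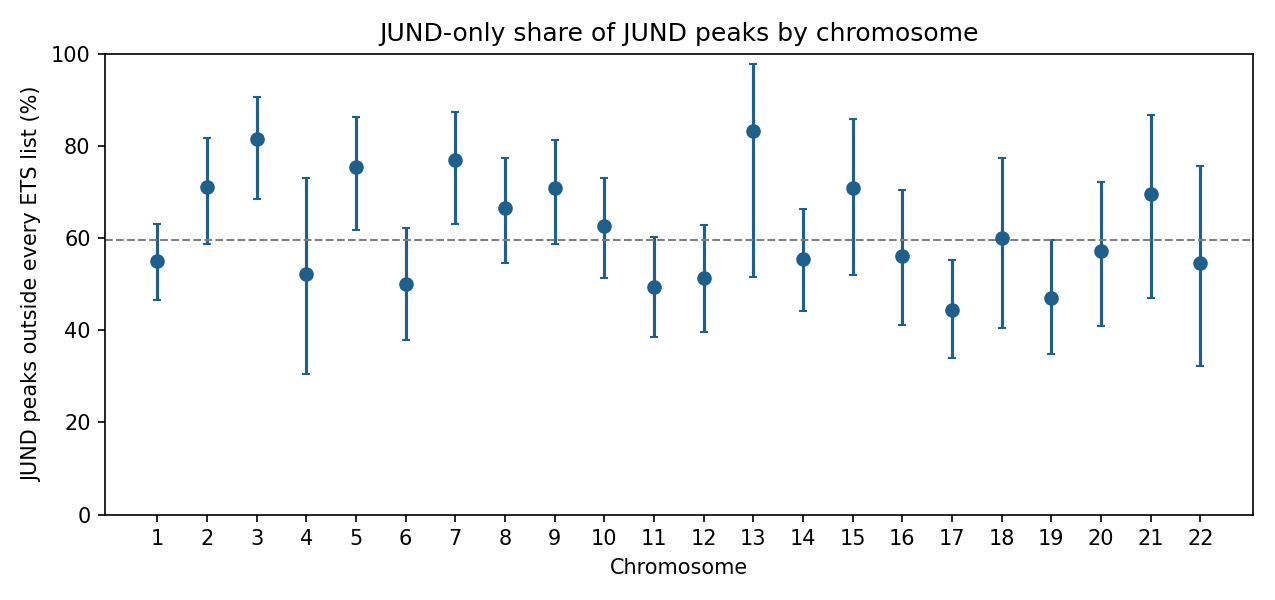
Share of JUND peaks outside every DU145 ETS list (vertical axis, %) on each of the 22 chromosomes with at least 10 JUND peaks. Points are shares, bars are 95% Clopper-Pearson intervals over peaks, and the dashed line is the share over the whole list (59.7%), with chromosomes 17 (44.4%) and 19 (47.1%) below it and chromosome 3 (81.5%) above it.

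The PANC1 ETS1 list was not used in the choice, but most of its peaks lie in the DU145 ETS lists that were. As a whole it is therefore no separate check on whether these sites carry ETS1 in the second line. The PANC1 list met 1 of the 781 JUND-only peaks (0.128%, 0.00324 to 0.711%) and 51 of the 527 others (9.68%, 7.29 to 12.5%), where 3.98% of all JUND peaks did. Nothing is read from this difference, because the choice fixes it. Of the 409 PANC1 peaks, 327 lie in a DU145 ETS list, and all 52 that met one of the other JUND peaks are among these. Of the 82 PANC1 peaks outside every DU145 ETS list, 1 met a JUND-only peak and 0 met another JUND peak (0 of 527, where 3 counts, the limit taken for a count of 0, would be 0.569%), too few to compare. One of these 82 lay within 50 kb of 4 of 781 JUND-only peaks (0.512%, 0.140 to 1.31%) and of 9 of 527 others (1.71%, 0.784 to 3.22%), with an odds ratio whose exact 95% interval held 1 (0.297, 0.0664 to 1.07).

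The single JUND-only peak met by PANC1 ETS1 lay on chromosome 19 from 39921443 to 39921943. It was 501 bp wide, stood at line 919 and shared 173 bp with the PANC1 peak. In DU145 it had ETS1 peaks at 2912 and 4441 bp, an ELK4 peak at 4378 bp and a GABPA peak at 4603 bp. It is thus a site near several ETS peaks of DU145 and not one of the isolated JUND sites.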

How the data were processed

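The 7 files deposited by the authors are ChIP-seq peak lists with 3 columns (chromosome, start, end) and no header, score, fold or count. Positions refer to hg19, and Bowtie2 2.0.6 appears with no stated role, both per the submitters' processing notes. The sources used here do not give the peak caller or its threshold, and the 2 inputs were not analysed here. Starts were read as BED and are printed 1-based. Peaks sharing at least 1 bp were counted as overlapping, and distances are the bases between interval ends. Shares carry 95% Clopper-Pearson intervals and odds ratios are conditional, with exact intervals and no p-value (Python 3.11.15, NumPy 2.4.6, SciPy 1.17.1, statsmodels 0.14.6, Matplotlib 3.10.9). On simulated lists, overlaps and distances were recovered in 3 of 3, and 97, 96 and 97 of 100 intervals held true odds ratios of 0.1, 1 and 5.

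The members and comparisons were chosen with earlier results of these data known. Named regions are the 10 widest JUND-only peaks, the first 5 by line, any that meet PANC1 ETS1, the 3 nearest to the limit of the choice on either side, and the 5 largest groups. Positions on chromosome 8 are not reported here. Motifs, gene starts and gene lists were also planned but need an hg19 genome or annotation, and were not analysed here.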

Additional observations from a re-analysis of the deposited data

How the results depend on the processing

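The count of 781 JUND-only peaks stayed within 1.5 times under 6 of 8 alternatives listed in advance and 1 of 3 added after seeing the data. It was 961 with peak centres within 200 bp and 764 with intervals within 500 bp counted as shared. The exceptions keep 654 of the 1308 JUND peaks each, and so fewer peaks. They gave 357 among the wider peaks (54.6%), 360 among the earlier lines (55.0%), 424 among the narrower peaks (64.8%) and 421 among the later lines (64.4%). The PANC1 odds ratio ran from 0 to 0.104 over 11 alternatives, but each chooses the peaks by ETS overlap, which fixes it, so nothing is read from this range. That for JUND neighbours kept its interval below 1 in all 12, added after seeing the data (0.430 to 0.667, the latter with peak centres within 200 bp). In 9 alternatives each, also added then, the odds ratio of later against earlier lines was lost among narrower peaks (1.01). That of the widest peaks kept its size among the later lines (0.476), where 15 widest peaks were left and the interval held 1. Distances, groups and chromosome shares were not recomputed. The AP-1 motif, ETS motif and gene start alternatives were not run. No paired analysis was possible because each group has 1 sample. With depth unknown, a site outside a list may lie under that list's threshold.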
